A study of Mus musculus with 22 samples.

Results

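The comparison described here is that of calorie-restricted (CR) with ad libitum fed (AL) mice at 5 months of age, after 2.5 months on the diets. It was made on all libraries that carry these labels, 5 CR and 5 AL libraries of the 22 in the series, 1 library per mouse. The mice were female Swiss Webster x DBA/C57BL6 F1 animals. CR mice received 30% less than the AL intake, the cut being made in carbohydrate alone, and were fed in the morning. AL mice of the same cross, age and sex served as controls. All were perfused and killed in the middle of the afternoon, the CA1 sector of the hippocampus was microdissected, and its mRNA was sequenced. The other 12 libraries are CR and AL mice at 15 months (6 each), which entered the same model and are used below only to set the 2 ages side by side. The comparison asks which CA1 transcripts differed early in the diet, in young adult mice.

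CA1 pyramidal neurons are the main output cells of the hippocampal circuit, and a CA1 dissection also holds interneurons, glia and vessels. Calorie restriction lowers growth factor signaling and raises circulating corticosterone in rodents. It also alters the supply of glucose and the timing of feeding, which the liver and brain clocks follow. Proteins of the endoplasmic reticulum (ER) and cytosol that fold other proteins, the chaperones, answer to unfolded protein, to glucose supply and to calcium in the ER lumen.

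The levels are FPKM, which are fragments scaled by transcript length and by the number of mapped fragments. CA1 markers were abundant in every library. Spink8 stood at 33.4, 51.8, 99.0, 68.3 and 87.4 FPKM in AL libraries 0 to 4 and at 52.8, 102, 63.4, 55.9 and 63.4 in CR libraries 0 to 4. Summed over 10 CA1 markers, the level was lowest in AL libraries 0 and 1 (278 and 298 FPKM) and between 367 and 572 in the others. Markers of CA3 and CA2 neurons were present too, with a sum over 11 genes of 434 to 676 FPKM in AL and 420 to 687 in CR. Sums over different genes do not measure shares of cells. Correlations of log2 levels between any 2 of the 10 libraries lay between 0.913 and 0.945. The FPKM values of low genes fall on steps of single fragments, which gives relative depths: AL library 2 and CR libraries 2 and 4 held 0.664, 0.683 and 0.729 of the depth of the median library, and the other libraries with such steps held 0.983 to 1.18. The 4 libraries numbered 0, 1 in each group of the series, stood apart, since at most 0.789% of their low genes shared a ratio with any other library, against 4.44% to 10.9% at best in each of the other 18. The labels give no batch, and AL library 0 and CR library 0 were the most alike of any pair at 5 months (0.945). Counts over lists that change without the libraries numbered 0 are given with and without them where they are discussed. CR libraries 3 and 4 carried many more transcripts of choroid plexus than the rest, as set out further on.

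Of the 16978 genes tested, 0 were called at a Benjamini-Hochberg adjusted p under 0.05 in limma (0.0%). Without adjustment, 789 genes (4.65%) had a p under 0.05, of which 423 had the higher mean in CR (2.49%) and 366 the lower (2.16%). Since a share near 5% is what the unadjusted threshold gives by itself, the 789 of this fit are not a list of changed genes. All CR libraries lay above all AL libraries for 90 genes (0.53%) and below them for 141 (0.83%). Fitted to the 10 libraries at 5 months alone, the model again called 0 genes. That fit had 1469 of the 16978 genes at an unadjusted p under 0.05, more than the 789 of the main fit, and its counts over lists below stand against that larger number. Without the 4 libraries numbered 0 it called 1, Hspa5. The fits without the libraries numbered 0 and those without CR libraries 3 and 4 were chosen after seeing the data. Without the libraries numbered 0, 2.10% of all genes were higher and 2.14% lower in CR at an unadjusted p under 0.05. Without CR libraries 3 and 4, 2.10% were higher and 2.29% lower. What follows describes the genes and groups with the smallest p-values as values. Positions are of the mm10 (GRCm38) genome in GENCODE release M21. An exact permutation test of 5 against 5 libraries, used below for single genes, cannot give a two-sided p below 0.00794.

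The gene with the smallest p was Agxt2l1 (chromosome 3, 130617448 to 130637521, now named Etnppl), which encodes the phospholyase that breaks down phosphoethanolamine and in brain is expressed by astrocytes. Agxt2l1 was at 0.558, 0.326, 0.386, 0.760 and 1.602 FPKM in AL libraries 0 to 4 and at 2.71, 2.89, 6.24, 2.56 and 3.54 FPKM in CR libraries 0 to 4. Each CR library was above each AL library, with CR library 2 the highest and AL library 4 nearest to the CR range. The means were 0.726 ± 0.518 FPKM in AL and 3.59 ± 1.53 in CR (SD, n = 5 each), a log2 difference of 2.27 ± 0.41 (SE) on the log2(FPKM + 0.1) scale and a ratio of means of 4.94. Its limma adjusted p was 0.24 and ranged from 0.0455 to 0.879 over the alternatives, the lowest being without AL library 4. The exact permutation p was 0.00794. At 15 months the difference was 0.79 ± 0.37, and the 2 ages were not separated after adjustment (difference -1.48 ± 0.56, adjusted p = 0.628 in limma). Of 14 astrocyte markers, 4 had the higher mean in CR, Agxt2l1 alone at an unadjusted p under 0.05, and the water channel gene Aqp4 was lower at that level (log2 difference -0.30 ± 0.14). Without the libraries numbered 0, 1 astrocyte marker was higher at that level and 0 were lower.

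**Figure D1:**
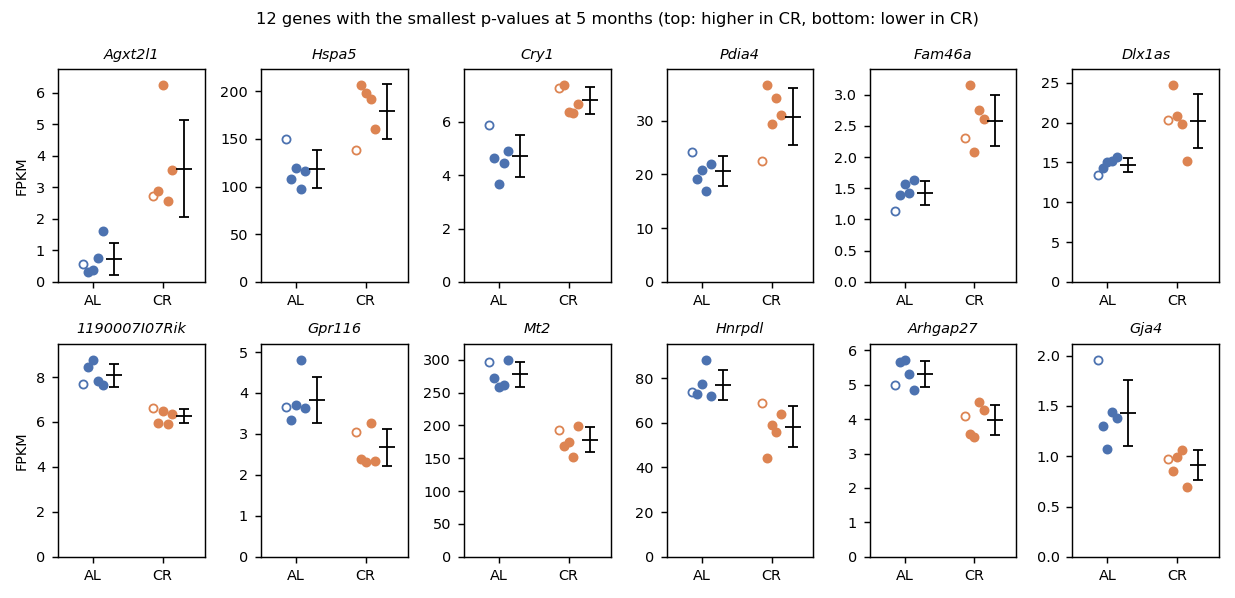
FPKM (vertical axes, from 0) in each AL and CR library of the 6 genes per direction with the smallest p-values at 5 months and a mean of at least 1 FPKM in either diet, open points marking library 0 of each diet and bars the mean ± SD (n = 5). Agxt2l1, Cry1 and Fam46a in the upper row and all 6 genes of the lower row show no overlap between the diets, while library 0 of AL and of CR lie between the 2 groups for Hspa5 and Pdia4.

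Hspa5 (chromosome 2, 34771970 to 34777547) encodes BiP, the main chaperone of the ER lumen, which also holds the stress sensors of the unfolded protein response inactive. Hspa5 was at 150.1, 108, 119.6, 97.6 and 117 FPKM in AL libraries 0 to 4 and at 138, 207, 198, 192 and 160.1 FPKM in CR libraries 0 to 4. AL library 0 was the highest of its group and CR library 0 the lowest of its own, and these 2 were the overlap between the diets. The means were 118 ± 19.6 and 179 ± 28.8 FPKM (SD, n = 5 each), a log2 difference of 0.59 ± 0.12 and a ratio of means of 1.51, with a limma adjusted p of 0.361 and an exact permutation p of 0.0159. Without the 4 libraries numbered 0 the difference was 0.77 with a limma adjusted p of 0.0156, the single gene called in that fit. Over the alternatives its adjusted p ranged from 0.0156 to 1. With a term for those libraries in place of leaving them out, the adjusted p was 0.319.

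The protein disulfide isomerases, which make and rearrange disulfide bonds in the same compartment, overlapped between the diets through the same libraries. Pdia4 (chromosome 6, 47796141 to 47813430) was at 24.2, 19.0, 20.8, 16.9 and 22.01 FPKM in AL and 22.5, 36.6, 29.4, 34.1 and 31.0 FPKM in CR libraries 0 to 4, a log2 difference of 0.57 ± 0.13 (limma adjusted p = 0.52, and 0.0505 without the libraries numbered 0, with a range of 0.0505 to 1 over the alternatives). Pdia6 was at 77.0, 62.8, 64.1, 56.0 and 57.3 FPKM in AL and 64.0, 101, 92.4, 95.3 and 77.4 FPKM in CR libraries 0 to 4 (0.43 ± 0.12, adjusted p = 0.824, and 0.0701 without them). In both, CR libraries 1 to 4 lay above AL libraries 1 to 4, and library 0 of CR lay below library 0 of AL. Calr, the calcium-binding lectin chaperone calreticulin, was at 196, 186, 192, 189.5 and 172 FPKM in AL and 191, 243, 278, 271 and 212 FPKM in CR libraries 0 to 4 (0.34 ± 0.11, adjusted p = 0.917). CR library 0 lay inside the AL range. Its CR libraries spread more widely than its AL libraries, with SDs of 37.3 and 9.12 FPKM.

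These 4 belong to a list of 38 ER chaperone and unfolded protein response genes, all of which were tested. The study singled these 4 out on these libraries, so the direction of the list is not independent evidence. No member was called. At an unadjusted p under 0.05, 14 of the 38 were higher in CR and 0 lower, where 2.49% and 2.16% of all genes were. The mean was higher in CR for 31 of the 38, against 50.1% of all genes, and the median log2 difference was 0.10, against 0 over all genes tested. The count was 9 without CR library 1. Without CR libraries 3 and 4 the count was 12 and the median 0.14. It was 15 without the libraries numbered 0, where 14 members had all 4 CR libraries above all 4 AL libraries (2.05% of all genes did), while with library 0 included no member was free of overlap. Among the 14, AL library 0 was the highest AL library for 14, AL library 3 the lowest for 11, CR library 0 the lowest CR library for 11 and CR library 1 the highest for 9.

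By role, most of the 14 were folding factors. Of 14 chaperones and their cofactors, 9 were higher at an unadjusted p under 0.05: beside Hspa5 and Calr these were Hyou1 (0.35 ± 0.09, the nucleotide exchange factor of BiP), Sdf2l1 (0.58 ± 0.21), Manf (0.41 ± 0.11), Creld2 (0.36 ± 0.14), Dnajc3 (0.28 ± 0.09), Hsp90b1 (0.25 ± 0.12) and Dnajb11 (0.19 ± 0.07). Of 7 disulfide isomerases and their oxidases, 3 were, Pdia4, Pdia6 and Pdia3 (0.25 ± 0.09). In ER-associated degradation 1 of 8 was, Derl3, a channel subunit (0.65 ± 0.27), with CR libraries 2 and 4 inside the AL range. Of 9 sensors and transcription factors, which detect unfolded protein and carry the signal to the nucleus, 1 was, Xbp1 (0.27 ± 0.12). The sensors Ern1, Eif2ak3 and Atf6 had log2 differences of 0.09 ± 0.14, 0.04 ± 0.10 and -0.22 ± 0.16. Ddit3, the factor of prolonged ER stress, stood at 0.03 ± 0.13, and the stress-induced Atf3, Trib3 and Chac1 at -0.30 ± 0.29, -0.28 ± 0.27 and -0.07 ± 0.16.

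**Figure D2:**
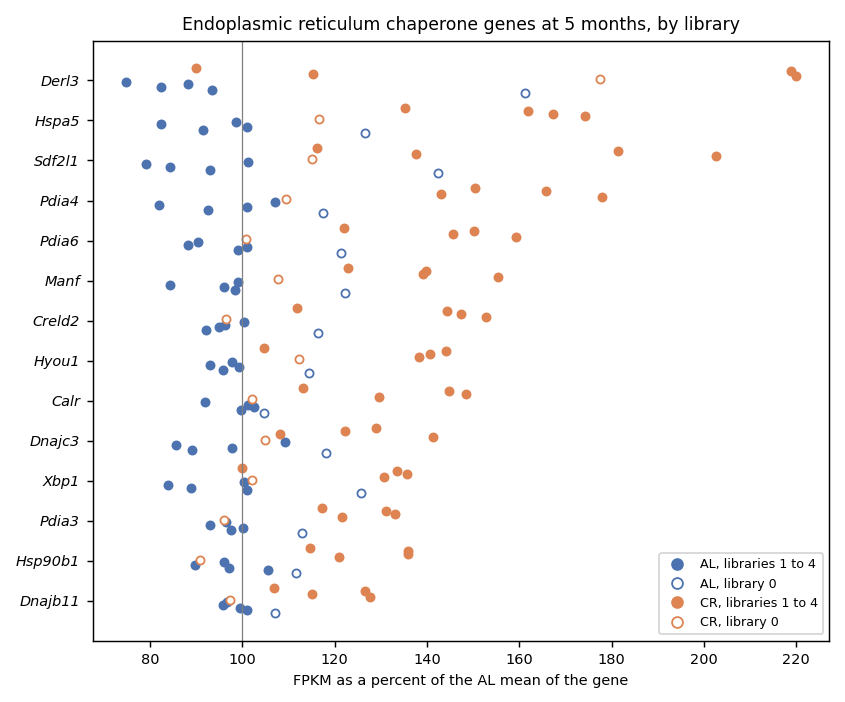
FPKM of each library as a percent of the AL mean of the gene (horizontal axis) for the 14 ER genes with an unadjusted p under 0.05, AL in blue and CR in orange, with library 0 of each diet as an open point. The open AL point is the highest AL point of every gene, and the open CR point is the lowest CR point for 11 of the 14.

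Part of the promoters of the list hold a common sequence. The ER stress element, to which ATF6 binds together with NF-Y, was searched as CCAAT, any 9 bases and then CCACG, on both strands within the 250 bases before the start site in RefSeq (GRCm38.p6). It was found in 37 of 32851 promoters (0.113%). Counted by gene, it was in 10 of the 32 listed genes with a promoter in that table, namely Hspa5, Hsp90b1, Calr, Canx, Dnajc3, Creld2, Pdia6, Ero1lb, Syvn1 and Derl3. The list was chosen as genes of the unfolded protein response, so this larger share is not a result of these data. Pdia4 and Hyou1 have no match in this window. Other elements were searched too. ER stress element II (ATTGG, any base, CCACG) and the unfolded protein response element (TGACGTGG) were each in 1 of the 32 genes. They were in 0.0304% and 0.563% of all promoters. The heat shock element, searched only as GAA, any 2 bases, TTC, any 2 bases and GAA, was in 0 of the 32 and in 2 of 25 heat shock genes (0.466% of all promoters). Other forms of these elements and sites outside the window were not searched, so a gene without a match may still hold one. The 10 genes with the first ER stress element had a median log2 difference of 0.31, from 0.09 to 0.65, with 7 at an unadjusted p under 0.05. The 22 without it had a median of 0.09, from -0.30 to 0.58, with 5. Hspa5, Calr and Pdia6 with the element, and Pdia4 without it, were singled out by the study on these libraries. These medians are therefore not independent evidence, and a role of the element in the differences was not tested. As 4 examples, the element is in capitals below, on the strand of the gene, so that a match on the other strand reads as its reverse complement. The last base of each line is the one before the start site. Hspa5 is taken from chr2:34771840-34772089 (plus strand), Calr from chr8:84846932-84847181 (minus strand), Pdia6 from chr12:17266339-17266588 (plus strand) and Hsp90b1, which holds 2 matches on opposite strands, from chr10:86705445-86705694 (minus strand).
Hspa5: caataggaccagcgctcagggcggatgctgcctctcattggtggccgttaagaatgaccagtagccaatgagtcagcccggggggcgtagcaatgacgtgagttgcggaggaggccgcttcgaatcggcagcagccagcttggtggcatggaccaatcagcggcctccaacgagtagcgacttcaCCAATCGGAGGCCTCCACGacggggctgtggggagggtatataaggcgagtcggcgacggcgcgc
Calr: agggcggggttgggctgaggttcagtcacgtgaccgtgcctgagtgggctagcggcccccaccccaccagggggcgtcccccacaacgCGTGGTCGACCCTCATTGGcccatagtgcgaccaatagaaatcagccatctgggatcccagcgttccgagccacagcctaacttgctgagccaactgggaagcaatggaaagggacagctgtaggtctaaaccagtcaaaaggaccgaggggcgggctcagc
Pdia6: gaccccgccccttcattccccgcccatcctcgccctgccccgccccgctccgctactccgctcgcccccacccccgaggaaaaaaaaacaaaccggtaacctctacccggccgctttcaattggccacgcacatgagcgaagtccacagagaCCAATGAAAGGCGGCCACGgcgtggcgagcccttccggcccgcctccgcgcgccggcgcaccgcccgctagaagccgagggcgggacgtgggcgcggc
Hsp90b1: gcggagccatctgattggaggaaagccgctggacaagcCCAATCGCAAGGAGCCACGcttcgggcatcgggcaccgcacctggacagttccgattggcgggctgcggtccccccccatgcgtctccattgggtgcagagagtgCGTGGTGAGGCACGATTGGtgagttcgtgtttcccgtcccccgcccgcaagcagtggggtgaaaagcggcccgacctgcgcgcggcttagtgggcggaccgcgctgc
The element in Hspa5 begins 65 bases before the start site, next to a run that reads as a TATA box, and the one in Pdia6 98 bases before it. A match describes letters in a window and does not show that a factor was bound in these mice. The genes of the 3 NF-Y subunits, named after their values were seen, had differences of both signs, with Nfya at 0.35 ± 0.09, Nfyb at -0.19 ± 0.09 and Nfyc at 0.07 ± 0.09.

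Heat shock proteins fold or hold proteins in the cytosol and mitochondria. Of 31 listed, 7 were higher in CR at an unadjusted p under 0.05 (2.49% of all genes were) and 0 lower, and 28 had the higher mean in CR, with a median of 0.12. Dnajb1, the Hsp40 partner of Hsp70, was at 26.7, 26.4, 27.0, 23.4 and 27.6 FPKM in AL and 33.6, 40.8, 35.3, 35.3 and 32.2 FPKM in CR libraries 0 to 4, without overlap (0.43 ± 0.11, limma adjusted p = 0.824, exact permutation p = 0.00794). Hspa1a, an inducible Hsp70, did not overlap either, at 2.70, 2.77, 2.44, 2.64 and 2.21 FPKM in AL and 2.79, 4.64, 2.91, 3.27 and 3.31 FPKM in CR libraries 0 to 4 (0.38 ± 0.14). Its near-identical copy Hspa1b was at 3.18, 4.68, 2.79, 5.25 and 4.503 FPKM in AL and 4.94, 9.44, 7.46, 4.90 and 4.99 FPKM in CR (0.61 ± 0.23, adjusted p = 1). For Hspa1b, CR libraries 1 and 2 lay above the AL range and the other 3 CR libraries inside it, and reads of these 2 copies can be split between them by the estimator, so that each is uncertain alone. Without the libraries numbered 0, 7 of the 31 were free of overlap on the higher side (2.05% of all genes were). These are not the same 7 as those at an unadjusted p under 0.05 with all libraries, since Hspa1b still overlapped. The other 4 at that level with all libraries were the small heat shock protein Hspb1 (0.59 ± 0.25), the Hsp70-Hsp90 organizing protein Stip1 (0.32 ± 0.09), Chordc1 (0.26 ± 0.10) and Dnaja4 (0.21 ± 0.10). The constitutive Hspa8 and Hsp90ab1, the most abundant of the list, stood at 0.16 ± 0.13 and 0.12 ± 0.09. The count of 7 at that level was 2 without CR library 1 and 4 without AL library 2 or without CR library 3. It was 8 without the libraries numbered 0.

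The same 2 lists were read at 15 months, in other mice. The study named Hspa5, Calr, Pdia4, Pdia6 and Hspa1b as higher in CR at both ages of this series. Both lists were also chosen with earlier results of these data known, so neither is independent evidence at either age. At 15 months, 15 of the 38 ER genes were higher in CR and 2 lower at an unadjusted p under 0.05. Of the 31 heat shock genes, 19 were higher and 0 lower (8.26% and 8.83% of all genes were higher and lower). Hspa5 differed by 0.66 ± 0.11 at 15 months, which passed the threshold there (limma adjusted p = 0.0137), and the 2 ages differed by 0.07 ± 0.16 (adjusted p = 0.93). For Hspa1b the values were 0.61 at 5 and 1.10 at 15 months (difference 0.49 ± 0.31). Of the ER genes 0 and of the heat shock genes 1 had an unadjusted p under 0.05 for the difference between ages (7.66% of all genes did).

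**Figure D3:**
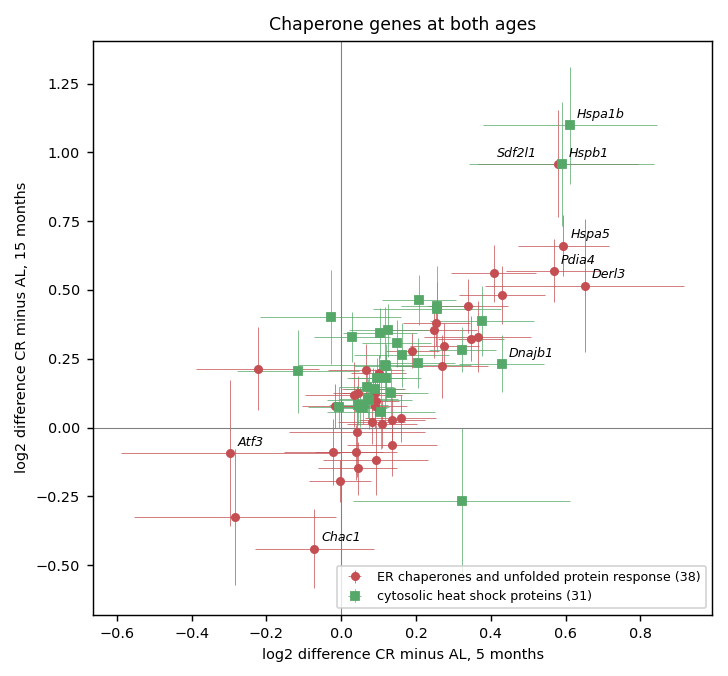
Log2 difference of CR against AL at 5 months (horizontal axis) and at 15 months (vertical axis) for the 38 ER and 31 heat shock genes, with SE bars. Hspa5, Pdia4, Sdf2l1, Hspb1, Hspa1b and Derl3 lie in the upper right, and Atf3, Trib3 and Chac1 lie below 0 on both axes.

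Over all genes, 203 differed between diets at an unadjusted p under 0.05 at both ages, which is 25.7% of the 789 at 5 months and 6.995% of the 2902 at 15 months. Of all genes tested, 17.1% had such a p at 15 months and 4.65% at 5 months. The sign was the same at both ages for 179, with 95 higher and 84 lower in CR, and opposite for 24. Of the 12 genes in the plot of single libraries, Hspa5 and Pdia4 passed the adjusted threshold at 15 months on the higher side. Gpr116, Hnrpdl and Gja4 passed it on the lower side, and the others did not pass. The share of all genes that passed it is not given here, so their number is not read as a result. The difference between the diet effects at 15 and 5 months was called for 0 genes (0.0%) in limma, with 1301 at an unadjusted p under 0.05. The 3 with the smallest p were Depdc7 (difference 1.61 ± 0.31), Ctla2a (0.87 ± 0.18) and Sprn (0.45 ± 0.09), each at an adjusted p of 0.537. Ctla2a, which encodes a cysteine protease inhibitor, was at 4.82, 6.29, 5.15, 5.72 and 5.86 FPKM in AL and 3.95, 4.19, 4.80, 4.33 and 3.54 FPKM in CR libraries 0 to 4 at 5 months, without overlap. Its mean at 15 months was 3.46 FPKM in AL and 4.80 in CR. Sprn, the prion-like protein Shadoo of neurons, had log2 differences of -0.26 at 5 and 0.19 at 15 months, and Depdc7 -0.60 and 1.01.

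Clock genes set the daily rhythm of transcription. Of 19 tested, 2 were higher and 3 lower in CR at an unadjusted p under 0.05 (2.49% and 2.16% of all genes were). The counts were 1 and 2 without CR libraries 3 and 4, 2 and 2 without the libraries numbered 0, and 4 and 3 in the fit of the 10 libraries alone. Cry1 (chromosome 10, 85131700 to 85185064), which represses the CLOCK and BMAL1 activators, was at 5.88, 4.66, 3.68, 4.47 and 4.90 FPKM in AL and 7.27, 7.38, 6.36, 6.33 and 6.68 FPKM in CR libraries 0 to 4. All CR libraries lay above all AL libraries (0.53% of all genes did), AL library 0 being the nearest. The means were 4.72 ± 0.796 and 6.80 ± 0.498 FPKM (SD, n = 5 each), a log2 difference of 0.53 ± 0.12 (limma adjusted p = 0.52, exact permutation p = 0.00794). Nr1d1, the repressor REV-ERB alpha, was at 48.9, 44.1, 50.9, 54.5 and 46.9 FPKM in AL and 40.4, 41.8, 40.2, 38.5 and 43.4 FPKM in CR, again without overlap (0.83% of all genes were lower without overlap) and with a narrower CR range (-0.26 ± 0.08, adjusted p = 0.899). Gm129, now named Ciart, a further repressor, stood at -0.46 ± 0.15, Arntl, which encodes BMAL1, at -0.27 ± 0.13, and the output factor Tef at 0.19 ± 0.09. Per1, Per2, Per3 and Dbp had differences of 0.04, 0.30, 0.03 and -0.14, none with an unadjusted p under 0.05. At 15 months Nr1d1 and Gm129 were lower in CR and passed the threshold (log2 differences of -0.48 and -0.62, limma adjusted p = 0.00541 and 0.0396). All mice were killed at a single time of day, so a shift in phase and a change in level cannot be told apart. Of the cold-inducible RNA-binding proteins, Cirbp stood at -0.37 ± 0.14 and Rbm3 at 0.18 ± 0.16.

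Targets of the glucocorticoid receptor respond to circulating corticosterone. Among 23 receptor and target genes tested, 20 had the lower mean in CR, where 50.1% of all genes had the higher mean. At an unadjusted p under 0.05, 3 of the 23 were lower (2.16% of all genes were) and 0 were higher. The median was -0.16. Mt2 (chromosome 8, 94172664 to 94173568), a metal-binding metallothionein, was at 297, 272, 258, 262 and 299.5 FPKM in AL and 193, 169, 175, 152 and 199 FPKM in CR libraries 0 to 4. The AL libraries lay well above the CR libraries, the nearest pair being AL library 2 and CR library 4. The means were 278 ± 19.4 and 178 ± 19.0 FPKM (SD, n = 5 each), a log2 difference of -0.65 ± 0.17 (limma adjusted p = 0.824, exact permutation p = 0.00794). Its neighbour Mt1 was at 418, 389.9, 435, 386 and 469 FPKM in AL and 386, 379.8, 407, 319.9 and 422 in CR, with overlap (-0.13 ± 0.16). Arl4d, a small GTPase, was at 7.92, 9.46, 6.86, 13.0 and 15.5 FPKM in AL and 5.81, 4.38, 4.23, 6.36 and 5.85 FPKM in CR, without overlap and with AL libraries 3 and 4 the highest (-0.93 ± 0.36). The third was Nfkbia (-0.34 ± 0.15). Mt2, Arl4d and the factor gene Klf9 (-0.22 ± 0.14) were the 3 members without overlap, all lower in CR (0.83% of all genes were). AL libraries 3 and 4 were also the highest of all 10 for Sgk1 (64.0 and 80.0 FPKM, the others from 31.1 to 47.4) and for Arrdc2 (11.3 and 9.28 FPKM). Fkbp5, the best known target in brain, stood at -0.19 ± 0.18 at 5 months and 0.53 ± 0.17 at 15 months. The list as a whole had a median of 0.03 at 15 months. There, 6 members were higher and 1 lower in CR at an unadjusted p under 0.05 (8.26% and 8.83% of all genes were). Of the 23, 6 had an unadjusted p under 0.05 for the difference between ages (7.66% of all genes did).

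The remaining genes ranked first by p come from no single group. Fam46a (chromosome 9, 85320439 to 85327348, now named Tent5a), a noncanonical poly(A) polymerase, was at 1.14, 1.39, 1.57, 1.42 and 1.63 FPKM in AL and 2.31, 3.16, 2.09, 2.76 and 2.61 FPKM in CR libraries 0 to 4. All CR libraries lay above the AL range (0.81 ± 0.18, limma adjusted p = 0.52), and at 15 months the difference was -0.09 ± 0.16. Dlx1as (chromosome 2, 71516454 to 71537891), the antisense partner of the interneuron factor gene Dlx1, was at 13.4, 14.3, 15.0, 15.1 and 15.7 FPKM in AL and 20.4, 24.7, 20.8, 19.8 and 15.1 FPKM in CR (0.44 ± 0.10, adjusted p = 0.632). CR library 4 lay within the AL range, and since the library kit does not keep strand, its reads and those of Dlx1 (0.27 ± 0.13) cannot be told apart.

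On the lower side, 1190007I07Rik (chromosome 10, 82619851 to 82623228) was at 7.70, 8.43, 8.76, 7.84 and 7.63 FPKM in AL and 6.64, 5.93, 6.499, 5.92 and 6.35 FPKM in CR libraries 0 to 4, without overlap (-0.36 ± 0.08, limma adjusted p = 0.52). Hnrpdl (chromosome 5, 100033577 to 100039664, now Hnrnpdl), an RNA-binding protein of the hnRNP family, was at 74.0, 72.7, 77.4, 88.1 and 71.8 FPKM in AL and 68.6, 44.2, 58.8, 56.0 and 63.9 FPKM in CR, with CR library 0 nearest to the AL range (-0.41 ± 0.11, adjusted p = 0.824). At 15 months its difference was -0.47 ± 0.10. Arhgap27 (chromosome 11, 103331497 to 103363692), a GTPase-activating protein of endocytosis, was at 5.00, 5.67, 5.72, 5.32 and 4.85 FPKM in AL and 4.10, 3.58, 3.49, 4.49 and 4.25 FPKM in CR, without overlap (-0.41 ± 0.11, adjusted p = 0.824).

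Vessel genes made up the other 2 of the 6. Gpr116 (chromosome 17, 43360451 to 43459557, now Adgrf5), an adhesion receptor of endothelium, was at 3.66, 3.33, 3.71, 4.81 and 3.63 FPKM in AL and 3.04, 2.40, 2.30, 3.27 and 2.35 FPKM in CR libraries 0 to 4. No library overlapped, with AL library 3 well above the other AL libraries (-0.51 ± 0.12, limma adjusted p = 0.632). Gja4 (chromosome 4, 127311421 to 127314039), the connexin 37 of arterial endothelium and mural cells, was at 1.96, 1.30, 1.07, 1.44 and 1.38 FPKM in AL and 0.978, 0.849, 0.995, 1.06 and 0.690 FPKM in CR (-0.58 ± 0.15, adjusted p = 0.824). AL library 0 was the highest and AL library 2 lay next to CR library 3.

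The lists of vessel markers were read next. In a bulk dissection, fewer cells of a type and less RNA per cell cannot be told apart. Of 13 endothelial markers, 5 were lower in CR at an unadjusted p under 0.05 and 0 higher (2.16% and 2.49% of all genes were), with a median of -0.27: Ly6c1 (-0.57 ± 0.17), Itm2a (-0.36 ± 0.12), Esam (-0.34 ± 0.12), Pecam1 (-0.32 ± 0.14) and Flt1 (-0.28 ± 0.13). Itm2a, at 34.8, 36.8, 34.7, 36.2 and 38.5 FPKM in AL and 31.1, 26.1, 24.7, 28.9 and 30.4 FPKM in CR libraries 0 to 4, was the only one of them without overlap. The tight junction gene Cldn5, which defines brain endothelium, stood at 0.04 ± 0.22. The summed level of the 13 markers ranged from 364.94 to 401 FPKM in AL. It was 347, 346, 364.88, 406 and 515 FPKM in CR libraries 0 to 4, highest in CR libraries 3 and 4, which carried many choroid plexus transcripts. Without CR libraries 3 and 4 the median of the list was -0.32, with 4 lower at an unadjusted p under 0.05 (2.29% of all genes were). All 10 pericyte and smooth muscle markers had the lower mean in CR, 4 of them at an unadjusted p under 0.05 (2.16% of all genes were): Gja4, Kcnj8 (-0.51 ± 0.20), Abcc9 (-0.38 ± 0.16) and Rgs5 (-0.34 ± 0.15). The 5 endothelial genes became 3 without the libraries numbered 0, and also without AL library 0, AL library 3, CR library 2 or CR library 4 alone, and 8 without CR library 3. The 4 mural genes became 1 without AL library 3 and 2 without AL library 0, CR library 2 or CR library 4, or without CR libraries 3 and 4 together. They became 3 without the libraries numbered 0.

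Interferon-stimulated genes belong to antiviral defense, and MHC class I molecules present peptides to T cells. Of 30 such genes tested, 4 were lower (Gbp3 at -0.60 ± 0.20, Irf7 at -0.46 ± 0.19, Usp18 at -0.52 ± 0.19 and Ifit1 at -0.58 ± 0.28) and 1 higher (Tapbp at 0.19 ± 0.09) at an unadjusted p under 0.05 (2.16% and 2.49% of all genes were). AL library 0 was the highest for all of the 4. Without the libraries numbered 0, 1 member was lower and 0 were higher, and without CR libraries 3 and 4, 2 were lower and 0 higher.

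Choroid plexus, the epithelium that makes cerebrospinal fluid, lies against the hippocampus and is not part of CA1. All 17 of its markers had the higher mean in CR, against 50.1% of all genes, 9 at an unadjusted p under 0.05 (2.49% of all genes were), with a median of 1.77. Their summed level was 103, 226, 328, 129.8 and 535 FPKM in AL and 206, 279, 268, 1353 and 3597 FPKM in CR libraries 0 to 4. The transport protein gene Ttr was at 27.9, 133, 185, 47.4 and 314 FPKM in AL and 110.3, 161, 177, 955 and 2058 FPKM in CR libraries 0 to 4 (1.85 ± 0.91, limma adjusted p = 1). CR libraries 3 and 4 were above all others and the other 3 CR libraries lay inside the AL range. The folate receptor gene Folr1 was at 0.438, 1.70, 2.06, 0.687 and 3.80 FPKM in AL and 2.13, 2.77, 2.01, 10.7 and 70.7 FPKM in CR, again with CR libraries 3 and 4 alone above the AL range. Kl, the klotho gene, which CA1 neurons also express, was at 7.48, 7.51, 11.999, 8.62 and 13.9 FPKM in AL and 8.52, 10.1, 6.12, 21.5 and 77.4 FPKM in CR (0.68 ± 0.52, adjusted p = 1, exact permutation p = 0.405). Without CR libraries 3 and 4 its difference was -0.24, that of Ttr was 0.54, the median of the list was 0.10, and 0 of the 17 had an unadjusted p under 0.05. The count was 1 without CR library 4 alone, 2 without CR library 3, AL library 0 or AL library 3, 14 without CR library 2, and 1 in the model of the 10 libraries alone. It was 7 without the libraries numbered 0.

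**Figure D4:**
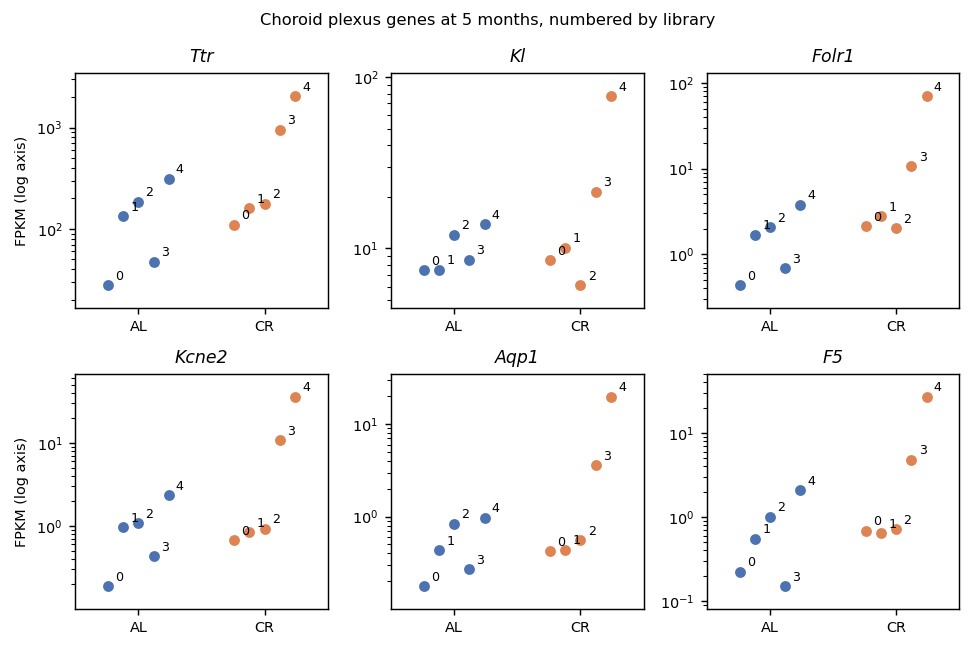
FPKM on log axes of 6 choroid plexus genes in the 5 AL and 5 CR libraries at 5 months, each point carrying its library number. In all 6 panels CR libraries 4 and 3 are the highest and second highest, and the remaining CR libraries fall within the AL range, except for Kl, where CR library 2 is the lowest of all 10.

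All 10 markers of the ependyma, the ciliated lining of the ventricles, had the higher mean in CR as well, with Foxj1 (0.75 ± 0.34) and Mia (0.78 ± 0.35) at an unadjusted p under 0.05 (2.49% of all genes were). These 2 became 0 without CR libraries 3 and 4, 0 without the libraries numbered 0 and 0 in the fit of the 10 libraries alone. The median of 0.49 became 0.29 without CR libraries 3 and 4 and 0.14 without the libraries numbered 0. Several other genes with large differences were highest in the same 2 libraries. Ins2 (1.53), Col8a1 (1.68) and Col8a2 (1.69) stood at 0.43, 0.34 and 0.83 without them. The serotonin receptor gene Htr2c, which choroid plexus expresses strongly, was at 9.13, 7.49, 11.7, 7.46 and 14.5 FPKM in AL and 17.2, 14.0, 20.5, 20.6 and 34.5 FPKM in CR libraries 0 to 4, and its difference of 1.06 ± 0.37 was 0.80 without the 2. By contrast Igfbp3, which binds IGF in the extracellular space, was at 7.495, 8.61, 7.15, 6.43 and 12.4 FPKM in AL and 14.8, 13.6, 19.5, 13.0 and 10.05 FPKM in CR, where CR library 4 was the lowest of its group, and its difference of 0.75 ± 0.27 was 0.94 without them. With a score of the choroid plexus markers other than Ttr and Kl as a covariate, 13 ER and 8 heat shock genes were higher, 3 endothelial and 2 mural genes lower, and Kl differed by -0.16.

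Other markers of the dissection also differed in their means. All 15 myelin and oligodendrocyte markers had the lower mean in CR, with a median of -0.44 and 2 at an unadjusted p under 0.05 (2.16% of all genes were), Mog (-0.98 ± 0.45) and Opalin (-1.004 ± 0.43). The count was 0 without the libraries numbered 0 and 5 in the fit of the 10 libraries alone. Opalin was at 20.0, 21.1, 19.4, 21.99 and 23.7 FPKM in AL and 9.89, 11.5, 6.73, 6.88 and 24.2 FPKM in CR libraries 0 to 4. CR libraries 0 to 3 lay below the AL range, and CR library 4 above it. The major myelin gene Mbp stood at -0.30 ± 0.31. Summed, the 15 markers ranged from 1279 to 2019 FPKM in AL and from 861 to 1926 in CR. All 10 dentate granule markers had the lower mean in CR (median -0.31, 0 at an unadjusted p under 0.05), and their sum was highest in AL libraries 0, 1 and 3. Microglial markers had the lower mean in 14 of 16 (median -0.23, 0 at an unadjusted p under 0.05). Without the libraries numbered 0, 4 were lower at that level (2.14% of all genes were). In the fit of the 10 libraries alone 6 were, a fit with more genes at that level over all genes as well. Interneuron markers had the higher mean in 13 of 15 (median 0.16), with Lhx6 (0.37 ± 0.16) and Dlx1 at an unadjusted p under 0.05 (2.49% of all genes were higher). Without the libraries numbered 0, 0 were at that level. CA1 markers had a median of 0.04 and 0 at that level.

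**Figure D5:**
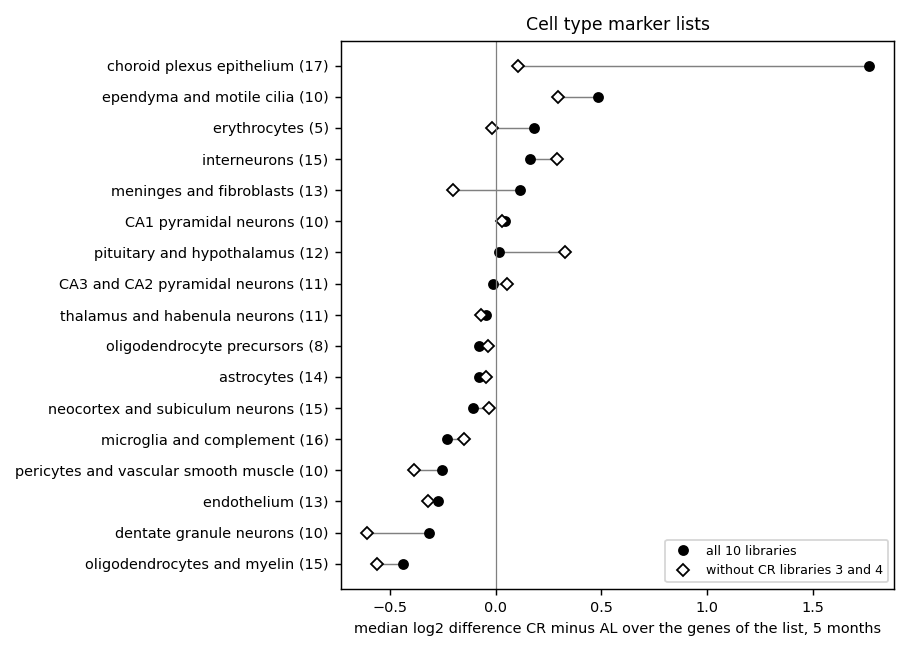
Median log2 difference of CR against AL at 5 months over each list of cell type markers (number of genes in brackets), with all 10 libraries (filled) and without CR libraries 3 and 4 (open). Choroid plexus moves from 1.77 to 0.10, while myelin, vessel and dentate markers lie below 0 in both.

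Pathways tied to dietary restriction held few genes with small p-values. In the insulin and IGF list, 3 of 34 were higher in CR (Ins2, Igfbp3 and Foxo6, 0.55 ± 0.26) and 0 lower at an unadjusted p under 0.05 (2.49% and 2.16% of all genes were). The 3 became 1 without CR libraries 3 and 4 and 2 without the libraries numbered 0, and the fit of the 10 libraries alone gave 4 higher and 3 lower. In the AMPK and mTOR list the AMPK beta subunit genes had differences of opposite sign: Prkab1 was at 7.05, 7.57, 8.27, 8.44 and 8.002 FPKM in AL and 6.59, 6.26, 6.58, 6.71 and 6.998 FPKM in CR libraries 0 to 4, without overlap (-0.24 ± 0.07, limma adjusted p = 0.899), and Prkab2 stood at 0.26 ± 0.12. At 15 months Prkab1 was lower, by a log2 difference of -0.49 ± 0.07, and passed the threshold (adjusted p = 0.00263). Of 10 sirtuins and partners, 1 was lower, Sirt5 (-0.16 ± 0.07), and Sirt1 stood at -0.01 ± 0.11. The neuronal glucose transporter gene Slc2a3 was the only 1 of 21 glycolysis genes at that level (0.29 ± 0.11). In the list of 28 ketone and fatty acid genes, Pdk2, which holds back pyruvate oxidation, was higher (0.16 ± 0.07) and the lipid carrier Fabp7 lower (-0.67 ± 0.27). Of 33 genes of lipid synthesis, 25 had the higher mean and 1 was at an unadjusted p under 0.05, the regulator Srebf1 (0.29 ± 0.13). The median of 0.06 became -0.000628 without CR libraries 3 and 4, with 0 members higher at that level, and without the libraries numbered 0 there were 0 higher and 1 lower. Leaving out the libraries numbered 0 also took Prkab2 and Fabp7 past an unadjusted p of 0.05.

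Neuronal and housekeeping lists held few or no genes with small p-values. No member had an unadjusted p under 0.05 among 42 nuclear genes of the respiratory chain (median 0.02), 46 ribosomal proteins (median -0.01), 31 proteasome subunits, 31 autophagy and lysosome genes, 14 GABA-A receptor subunits, 37 synaptic kinases and scaffolds and 19 neurotrophin and growth factor genes. In the fit of the 10 libraries alone, 4 GABA-A subunits were lower, 1 synaptic gene was higher and 1 lower, and 2 neurotrophin genes were higher and 1 lower, while without the libraries numbered 0, 1 autophagy or lysosome gene was higher and 1 lower. Bdnf, the main activity-dependent neurotrophin, stood at -0.09 ± 0.21 at 5 months. In the other receptor and channel lists single genes reached that level: Grm3 (-0.36 ± 0.14, without overlap) of 23 glutamate receptor genes, Kcnk2 (-0.30 ± 0.14) of 26 potassium channel genes, Oprm1 (0.52 ± 0.25) of 43 neuropeptide genes, and Chrm4 (0.35 ± 0.16) and Adra1a (0.44 ± 0.21) beside Htr2c of 31 monoamine and acetylcholine receptor genes. Without the libraries numbered 0, Htr2c alone of these 6 genes stayed under that level. Of 31 immediate early genes, 1 was lower, Klf2 (-0.61 ± 0.22), a factor of endothelium as well as neurons. In the main fit, 2.49% of all genes were higher and 2.16% lower at an unadjusted p under 0.05, so single genes in lists of this size are not read as results. A p that misses the threshold does not show that these genes were at the same level in both diets.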

How the data were processed

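Hippocampal CA1 tissue of 22 mice was sequenced after mRNA selection, 1 library per mouse, as stated in the labels and the study's methods. From the reads, the authors made the deposited FPKM matrix by alignment to mm10 with TopHat, removal of duplicates with Picard and estimation with Cufflinks under fragment bias and multi-read correction. Tool versions are not given in the sources used here. Groups were taken from the labels, and every value column belonged to a sample.

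FPKM were analysed as log2(FPKM + 0.1) for the 16978 of 23361 genes with a mean of at least 0.1 FPKM over all libraries. A limma 3.58.1 model (R 4.3.3) with 4 groups of age and diet and an eBayes trend, fitted to all libraries, gave the contrasts, and p-values were adjusted by Benjamini-Hochberg over all genes tested. Single genes were also compared by a two-sided exact permutation test of the 10 libraries at 5 months (numpy 2.4.6). The model was tested on simulated data. FPKM carry no counts, so no count test or counting interval applies, and fold changes on this scale understate those of low genes. Of all libraries, 18 kept steps of single fragments from which relative depth was read, and absolute depth is unknown.

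The genes described singly are the 6 per direction with the smallest p and a mean of at least 1 FPKM in either diet, leaving out microRNA and small nucleolar RNA rows, together with the genes the study names for 5 months, the 3 with the smallest p for the difference between ages, and members of 46 lists of functions and cell types. The lists and members were chosen with earlier results of these data known. Gene positions were matched by symbol to GENCODE M21 for 229 of 231 genes, and promoters are from RefSeq (GRCm38.p6). The alternatives covered the pseudocount, the filter, the scaling, the variance model, the samples fitted, a replicate block, marker scores as covariates and leaving out each library. A few genes are not reported here.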

Additional observations from a re-analysis of the deposited data

Results flagged for a closer look

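Of 132 groups of 5 libraries at 5 months looked at, each a named gene or the mean log2 level of a list, 6 held a library whose gap to its nearest neighbour was more than 0.71 of the range of the group, a limit that chance passes in about 1 in 20 groups. AL library 0 was the highest of its group for glutamate receptors (0.838 of the range) and for neocortex and subiculum neurons (0.73), and AL library 4 was the highest for neuropeptides and their receptors (0.833) and for thyroid hormone transport and targets (0.745). AL library 2 was the lowest for meninges and fibroblasts (0.74), and AL library 3 the highest for Gpr116 (0.711). All 6 were AL libraries.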

How the results depend on the processing

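The number of genes called at 5 months was 0 in limma under the alternatives other than 3. It was 1 with eBayes without the trend, 1 without the 4 libraries numbered 0 (Hspa5, adjusted p = 0.0156), and 0 to 1 leaving out 1 library at a time, the 1 being Agxt2l1 without AL library 4 (adjusted p = 0.0455). Genes at an unadjusted p under 0.05 numbered 1469 in the fit of the 10 libraries at 5 months alone, which rests on fewer samples and its own estimate of the spread, and 563 to 942 leaving out 1 library. Choroid plexus members at that level numbered 1 in the fit of the 10 libraries alone, 0 with the choroid plexus score as a covariate, 0 without CR libraries 3 and 4, and 1 to 14 leaving out 1 library. Endothelial members numbered 3 with that covariate, 3 without the libraries numbered 0, and 3 to 8 leaving out 1. Pericyte members numbered 2 with the covariate, 2 without CR libraries 3 and 4, and 1 to 4 leaving out 1. ER members ranged from 9 to 15 and heat shock members from 2 to 8 leaving out 1. Kl turned to -0.16 with the covariate and to -0.24 without CR libraries 3 and 4. The remaining single-gene values kept their direction, and the cause of the changes was not tested. Whether same-numbered libraries share a batch was not tested. Deviations of same-numbered AL and CR libraries at 5 months correlated between -0.00787 and 0.163, above 0.1 in 1 of 5 pairs. Of the 5 AL libraries, 4 correlated best with the CR library of their number. With the replicate block, 0 genes were called and 959 had an unadjusted p under 0.05, against 789 in the main fit. With 5 mice per diet, adjusted p-values near the threshold turn on single libraries. Nothing here measures cell numbers, and the libraries numbered 0 carry no label that sets them apart.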
